A study of Mus musculus with 46 samples.

Results

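The genes described here are the 2 corticosteroid receptors and 8 genes that glucocorticoids are known to regulate, taken by name as 10 of the 31854 genes in the count table: Nr3c1, Nr3c2, Fkbp5, Sgk1, Tsc22d3, Zbtb16, Errfi1, Mt1, Mt2 and Cdkn1a. Their surroundings were taken as every ATAC-seq peak within 100 kb of 1 of their start sites in mm10, which gave 182 of 123721 open chromatin regions (OCRs) in the table of feeding states and 97 of 67472 in the table of sorted nuclei. The mice carried the NuTRAP cassette, in which removal of a loxP-flanked stop turns on a GFP-tagged L10a ribosomal subunit and an mCherry-tagged RANGAP of the nuclear membrane. AgRP-IRES-Cre or POMC-IRES-Cre drove that removal, so the tag marks any cell in which the Cre was active, and every group carried the cassette and a Cre. AgRP neurons of the arcuate nucleus (ARC) are known to promote feeding, and POMC neurons to restrain it. Translating ribosome affinity purification (TRAP) followed by RNA-seq covered male mice aged 6 to 11 weeks on a C57BL/6J background. The ARCs of 4 mice were pooled in each sample. NuTRAP AgRP mice were fed ad libitum and given PBS vehicle (3 libraries), fasted overnight and given PBS vehicle (4 libraries), or fasted overnight and given leptin (4 libraries). NuTRAP POMC mice were given the same 3 treatments, with 2 libraries each. Per the study's methods, injections were intraperitoneal and tissue was taken 3 hours later, so leptin results are of a short exposure after a fast. ATAC-seq of AgRP nuclei had 2 libraries in each of the 3 states, and a second set compared sorted AgRP-positive with AgRP-negative nuclei, 2 libraries each. The sample titles and the study's methods do not give a feeding state for this second set.

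Glucocorticoids enter the cell and bind the glucocorticoid receptor, encoded by Nr3c1, or the mineralocorticoid receptor, encoded by Nr3c2, which binds the same hormone with higher affinity. The bound receptor moves to the nucleus and binds glucocorticoid response elements (GREs) in DNA, many of them in introns or far from start sites. Circulating corticosterone is known to rise in fasted mice. Hormone levels were not measured in the files used here.

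Peaks with GRE letters that opened in fasted mice are shown first, since the accessibility results return to them. They were picked for that opening and for holding a strict match, as defined next. Matches were sought as ACANNNTGT, the core of the palindrome, on either strand, and a strict match also had a G just outside the A of the left arm, separated by 1 base, and a C in the mirrored place on the right. Over whole peaks, 12 of the 29 peaks near members that opened in fasted mice held the core (41.4%, beside 26.1% of all fasted-opened peaks). Only those with a strict match are printed. Each of these 6 strict matches lay in the central 300 bases or elsewhere in a peak that opened in fasted mice. The capitals mark the strict match, printed from the plus strand of mm10.
Mt2, peak upstream of the start site, chr8:94171528-94171556: agctgcgaGGACAGCCTGTCCtgttacaa
Mt1, promoter peak, chr8:94178987-94179015: cactatagGGACATGATGTTCcacacgtc
Fkbp5, intron, chr17:28420314-28420342: agagcacaGAACACCCTGTTCtgaatgtg
Tsc22d3, intergenic, chrX:140513547-140513575: gctcaggaGAACACTGTGTGCtctggact
Errfi1, intergenic, chr4:150800082-150800110: ctgataaaGGACAGAGTGTCCttggctcc
Cdkn1a, first intron region, chr17:29094692-29094720: tttggcggGCACAGTATGTTCccagggaa
Of 15 tested peaks near members that held a strict match, 9 had no call between fasted and fed mice, and the matches of 2 of these are given for comparison.
Fkbp5, upstream of a start site, chr17:28518172-28518200: tggggctgGAACACAATGTCCcgggcgag
Zbtb16, intron, chr9:48737594-48737622: tgctttggGTACAGTGTGTTCttggagac
A match of letters is a description of the sequence, and receptor binding was not measured.

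The promoters of the metallothionein pair, 300 bases each, are shown because both start sites changed in accessibility and both transcripts changed. RefSeq (GRCm38.p6) had promoter entries for 8 of the 10 genes. Capitals mark metal response elements (MREs), the sites of the metal sensor MTF1, sought as TGCACNC or TGCGCNC on either strand.
Mt1, chr8:94178839-94179138, plus strand: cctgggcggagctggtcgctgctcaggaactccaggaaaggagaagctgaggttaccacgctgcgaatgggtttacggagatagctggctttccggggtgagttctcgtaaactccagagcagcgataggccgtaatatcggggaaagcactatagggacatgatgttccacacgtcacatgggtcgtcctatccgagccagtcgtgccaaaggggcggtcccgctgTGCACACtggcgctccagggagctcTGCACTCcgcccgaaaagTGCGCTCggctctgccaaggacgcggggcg
Mt2, chr8:94172368-94172667, plus strand: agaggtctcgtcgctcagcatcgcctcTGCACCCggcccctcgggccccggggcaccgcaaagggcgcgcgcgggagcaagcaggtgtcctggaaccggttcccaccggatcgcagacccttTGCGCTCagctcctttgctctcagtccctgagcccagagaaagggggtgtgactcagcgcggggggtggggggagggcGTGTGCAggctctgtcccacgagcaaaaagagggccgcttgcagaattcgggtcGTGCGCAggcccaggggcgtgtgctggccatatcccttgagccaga
The Mt1 promoter held 3 MREs and 1 GRE core, and the Mt2 promoter held 4 MREs and no GRE core. Among 32851 RefSeq promoters of this length, 1.97% held at least 3 MREs, 0.517% held at least 4, and 6.85% held a GRE core.

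RNA library totals ran from 25581041 to 54511107 counts, totals of the 3-state ATAC libraries from 8263234 (fed library 1) to 17190963, and those of the sorted nuclei from 8685497 to 11177208. The labelled neuron types matched their markers: summed AgRP-neuron markers were 2201 to 8563 CPM (counts scaled to a common library size) in AgRP libraries and 365 to 698 CPM in POMC libraries, and summed POMC-neuron markers were 66.2 to 107 CPM against 1591 to 2972 CPM. Libraries numbered 4 in the AgRP set and 2 in the POMC set stood apart. Their sums of 8 astrocyte markers were 21371 to 28372 CPM, against 3046 to 7149 CPM in the other libraries, in each state alike. Slc1a2, a glutamate transporter gene, made up most of this gap, at 20152 to 25852 CPM in the AgRP libraries numbered 4, and the other 7 markers summed to 1169 to 1243 CPM there against 663 to 952 CPM in the other AgRP libraries. Tanycyte and ependymal markers were also higher there, at 193 CPM against at most 99.9 CPM in fasted mice, as were microglia markers in fasted mice, at 43.7 against at most 21.7 CPM. In fed mice the microglia sum of library 4 was 46.1 CPM against up to 45.9 CPM in the others. Endothelial and pericyte markers were lowest in fasted library 4, at 123 CPM, with up to 242 CPM in the other fasted AgRP libraries. Results with the AgRP libraries numbered 4 left out are given where they change a call, and the part of these markers in the results was not tested. In pooled tissue of this kind, fewer cells of a type and less RNA per cell cannot be told apart. The labels do not say more of how the pools were formed, so the p-values measure the spread between samples.

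Across the 10 genes, 5 rose in AgRP neurons of fasted mice and none fell, and the genes then separated under leptin. The fasting rises of Cdkn1a, Sgk1 and Errfi1 were called whichever library was left out, and those of Fkbp5 and Mt2 were not. The mineralocorticoid receptor and the metallothioneins were highest after leptin. For Fkbp5 and Errfi1, feedback genes of hormone and growth-factor signalling, every fasted AgRP library lay above all others. Sgk1, Zbtb16 and Cdkn1a also had their highest AgRP mean after fasting, with fasted libraries that overlapped another state. In POMC neurons, with 2 libraries per state, 0 of the 10 genes were called in any comparison of states, and neither was any of the 13412 genes tested. With the library number as a block, Mt1 and Mt2 were called higher there for leptin against fed, beside 0.328% of all genes called in either direction. A gene was called when the false discovery rate (FDR) of the edgeR quasi-likelihood test, adjusted over all genes tested, was under 0.05 and the log2 fold change beyond 0.5. Same-numbered AgRP libraries of different states varied together, so the fit with the library number as a block is given wherever it changes a call.

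**Figure D1:**
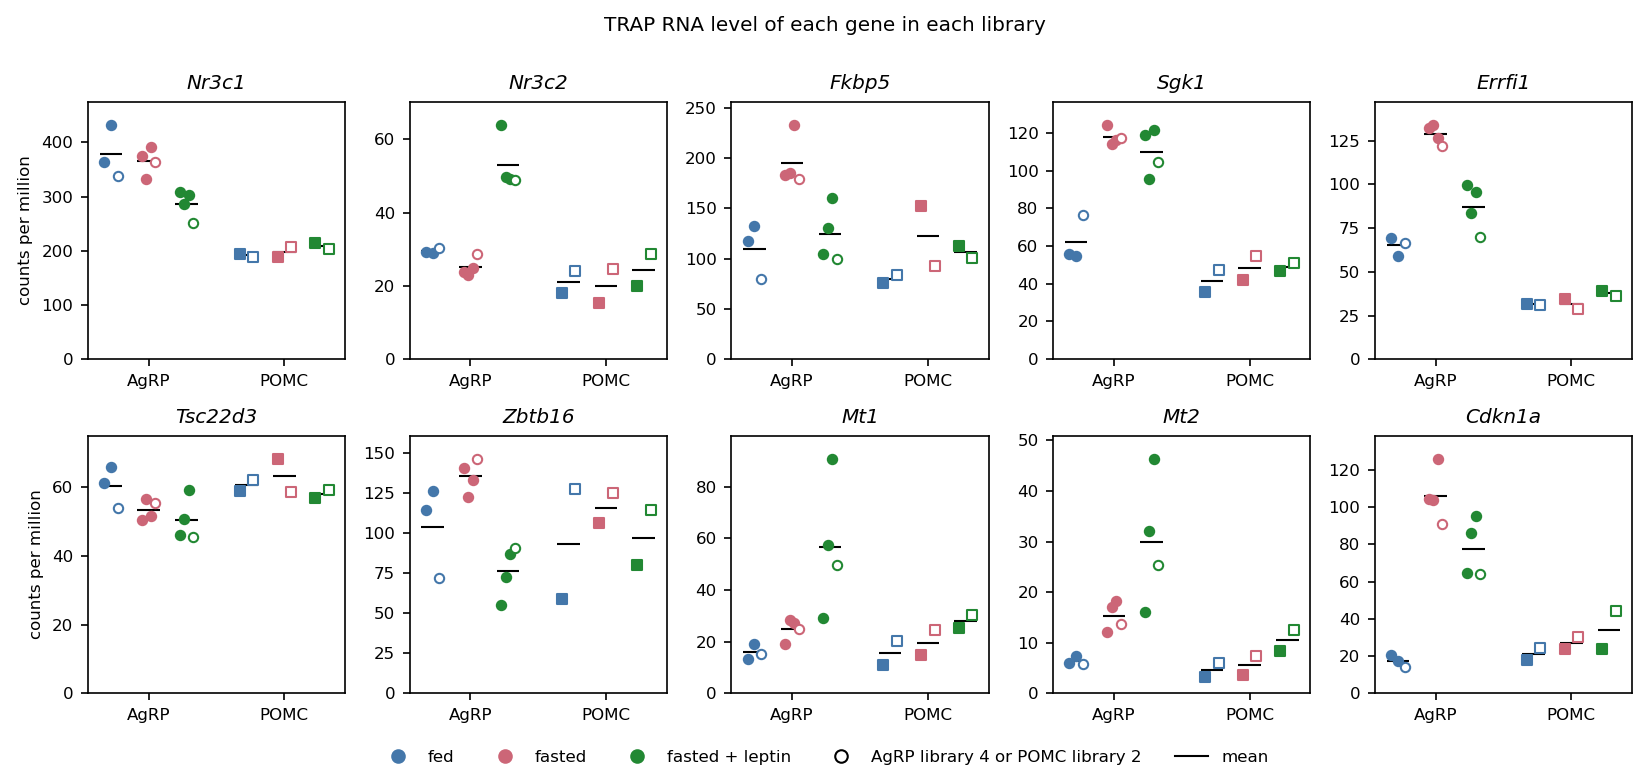
Level of each of the 10 genes in every TRAP library, in CPM on the vertical axis, with 1 panel per gene, AgRP libraries as circles, POMC libraries as squares, and open symbols for AgRP libraries numbered 4 and POMC libraries numbered 2. Lines are group means. Cdkn1a lies at 14.1 to 20.7 CPM in fed and 90.8 to 126 CPM in fasted AgRP libraries, and Nr3c2 at 48.8 to 63.9 CPM after leptin.

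The receptors came first. Nr3c1 (chr18:39410545-39519421, minus strand) was at 363, 432 and 339 CPM in fed AgRP libraries and at 375, 332, 391 and 364 CPM in fasted ones. These overlapped, and the difference was -0.04 ± 0.11 (log2 ± SE, FDR = 0.907). After leptin the 4 libraries read 308, 287, 303 and 251 CPM, all below every fed and fasted library. That difference stayed under the fold threshold, at -0.35 ± 0.10 against fasted (FDR = 0.124) and -0.39 ± 0.11 against fed (FDR = 0.0436). With the replicate block the first of these had an FDR of 0.00402 and was again too small to be called. Nr3c1 was the most abundant of the 10 genes per unit of exon length in fed AgRP libraries, at a mean of 55.1 CPM per kb. Next in mean level per kb were Fkbp5 at 25, Errfi1 at 21.5, Mt1 at 21, Zbtb16 at 18, Tsc22d3 at 16.5, Sgk1 at 13.6, Mt2 at 11.5, Cdkn1a at 7.83 and Nr3c2 at 7.24 CPM per kb. In this order the neighbours from Fkbp5 to Mt2 overlapped in mean ± SD (n = 3), as did Cdkn1a and Nr3c2.

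Nr3c2 (chr8:76899442-77245012, plus strand) behaved differently from Nr3c1. It was at 29.4, 29.0 and 30.4 CPM in fed AgRP libraries, 23.8, 23.1, 24.8 and 28.7 CPM in fasted ones and 63.9, 49.8, 49.1 and 48.8 CPM after leptin. Every library of leptin-treated mice lay above every other AgRP library. The rise was 1.07 ± 0.11 against fasted (FDR = 4.11e-04) and 0.84 ± 0.11 against fed (FDR = 0.00186), and both were called in each of the 11 fits that left out 1 library. Fasting itself moved Nr3c2 by -0.23 ± 0.11 (FDR = 0.31), with no overlap of the fed and fasted libraries. It remained a minor transcript, at 7.24 CPM per kb in fed and 12.9 CPM per kb in leptin-treated mice. Part of its exons, 247 bases, overlaps Gm10649 on the opposite strand in GENCODE. The authors counted on an annotation altered to reduce such overlaps, and how far it affected this count, like the use of strand, is not given in the sources used here.

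Fkbp5 (chr17:28399094-28517527, minus strand) encodes a co-chaperone that lowers the receptor's affinity for hormone, a feedback loop in many tissues. It was at 118, 132 and 80.0 CPM in fed, 183, 185, 233 and 179 CPM in fasted and 105, 131, 161 and 100.0 CPM in leptin-treated AgRP libraries. The fasted libraries lay above all others. The fasting rise was 0.84 ± 0.20 (FDR = 0.0324), and it was lost when fasted library 1, 2 or 3, fed library 1 or 4 or leptin library 2 was left out, with an FDR of up to 0.128. Without the libraries numbered 4 it was 0.67 (FDR = 0.0499), and with the replicate block 0.85 (FDR = 1.26e-04). Scaled by library size alone it was 0.77 (FDR = 0.117) and not called. Leptin-treated mice were lower than fasted mice by -0.65 ± 0.18, which was not called (FDR = 0.11) but was called with the block (-0.67, FDR = 4.45e-04).

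Errfi1 (chr4:150853919-150868892, plus strand) encodes an inhibitor of the EGF receptor family. Its levels were 69.4, 59.2 and 66.6 CPM in fed, 132, 134, 127 and 122 CPM in fasted and 99.9, 83.6, 95.8 and 69.9 CPM in leptin-treated AgRP libraries. The 3 states did not overlap, and the leptin libraries sat between the other groups. It rose by 0.99 ± 0.11 with fasting (FDR = 0.00107, called in 11 of 11 fits without 1 library). Without the block it was the 1 member called lower under leptin, by 0.56 ± 0.10 on the log2 scale against fasted (FDR = 0.0114). With the replicate block 3 members were called lower, Fkbp5 and Zbtb16 among them. Without leptin library 4 that fall was 0.48, and without all libraries numbered 4 it was 0.50 (FDR = 0.0131), both too small to be called, and with library size scaling the FDR was 0.163. Against fed mice the leptin group was higher by 0.43 ± 0.11 (FDR = 0.0321), under the fold threshold, and by 0.52 without the libraries numbered 4 (FDR = 0.0119).

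Sgk1 (chr10:21882184-21999903, plus strand), a kinase that regulates ion channels and transporters, rose with fasting and stayed up. It was at 55.9, 54.6 and 76.3 CPM in fed, 124, 114, 116 and 117 CPM in fasted and 119, 95.4, 121 and 104 CPM in leptin-treated AgRP libraries. The fasted and leptin libraries overlapped and both stood above the fed ones. The rise was 0.93 ± 0.13 with fasting (FDR = 0.00244) and 0.83 ± 0.13 with leptin against fed (FDR = 0.00342), each called in 11 of 11 fits without 1 library. Between leptin and fasted the difference was -0.10 ± 0.12 (FDR = 1).

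Tsc22d3 (chrX:140539528-140600659, minus strand), also called GILZ, mediates part of the anti-inflammatory action of glucocorticoids. It was at 53.9 to 65.9 CPM in fed, 50.4 to 56.4 CPM in fasted and 45.6 to 59.1 CPM in leptin-treated AgRP libraries, and all 3 ranges overlapped. Its fasting difference was -0.16 ± 0.11 (FDR = 0.454), and that of leptin against fed was -0.25 ± 0.11 (FDR = 0.182).

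Zbtb16 (chr9:48654297-48836222, minus strand), the zinc finger factor PLZF, was at 114, 126 and 72.0 CPM in fed, 140.4, 123, 133 and 146 CPM in fasted and 55.2, 72.7, 86.7 and 90.6 CPM in leptin-treated AgRP libraries. The leptin libraries all lay below the fasted ones. That difference was -0.83 ± 0.19 (FDR = 0.0511), just short of a call. It was called with the replicate block (-0.84, FDR = 0.00774) and without the libraries numbered 4 (-0.89, FDR = 0.0109). Leptin against fed was -0.43 ± 0.20 (FDR = 0.234), and -0.76 without the libraries numbered 4 (FDR = 0.0185, called). The fasting difference was 0.39 ± 0.21 (FDR = 0.338).

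The metallothioneins, small proteins that bind zinc and copper, had their highest levels after leptin. Mt1 (chr8:94179082-94180327) was at 13.4, 19.2 and 15.1 CPM in fed, 19.3, 28.4, 27.1 and 24.8 CPM in fasted and 29.2, 57.5, 90.6 and 49.5 CPM in leptin-treated AgRP libraries. Mt2 (chr8:94172664-94173568) was at 5.94, 7.48 and 5.83 CPM, then 12.1, 17, 18.3 and 13.6 CPM, then 16.0, 32.0, 46.3 and 25.4 CPM. In both genes leptin library 1 was the lowest of its group and library 3 the highest, and the leptin libraries lay above all fed libraries. Against fed, leptin-treated mice had more Mt1 by 1.85 ± 0.32 (FDR = 0.00666) and more Mt2 by 2.23 ± 0.32 (FDR = 0.00231), each called in 11 of 11 fits without 1 library.

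The separate steps of the metallothionein rise were less firm. From fed to fasted, Mt2 rose by 1.26 ± 0.30 (FDR = 0.0375), but the call was lost without any 1 of fasted libraries 1, 2 and 3, fed libraries 1, 3 and 4 and leptin library 2, with an FDR of up to 0.147, and without the libraries numbered 4 (1.23, FDR = 0.0933). With the replicate block it was 1.20 (FDR = 6.77e-04), and with library size scaling 1.21 (FDR = 0.0587). Mt1 differed by 0.66 ± 0.31 (FDR = 0.28), and was called with the block (0.61, FDR = 0.0286). From fasted to leptin, Mt1 differed by 1.19 ± 0.29 (FDR = 0.0634) and Mt2 by 0.97 ± 0.27 (FDR = 0.122), the latter with overlapping libraries. Both were called with the block, at 1.12 (FDR = 4.45e-04) and 0.93 (FDR = 9.63e-04). Mt1 and Mt2 are close paralogs counted from primary alignments, so reads that match both may sit under either name, and 432 of the exon bases of Mt2 overlap Gm45774 on the opposite strand.

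Cdkn1a (chr17:29090976-29100727, plus strand), the cyclin-dependent kinase inhibitor p21 and also a classic p53 target, showed the largest change of the 10 genes. It was at 20.7, 17.4 and 14.1 CPM in fed, 104, 104, 126 and 90.8 CPM in fasted and 64.5, 85.9, 95.3 and 64.1 CPM in leptin-treated AgRP libraries. No fed library came near the other groups, which overlapped at their edges. The rise was 2.61 ± 0.18 with fasting (FDR = 1.39e-04) and 2.16 ± 0.18 with leptin against fed (FDR = 2.09e-04), both called in 11 of 11 fits without 1 library. Leptin-treated mice differed from fasted mice by -0.45 ± 0.15 (FDR = 0.254). In fed mice Cdkn1a was at 7.83 CPM per kb, near Nr3c2, and in fasted mice at 47.7 CPM per kb, between Fkbp5 at 44.4 and Nr3c1 at 53.3 CPM per kb. Its exons share 273 bases with a transcript of unresolved type on the opposite strand.

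**Figure D2:**
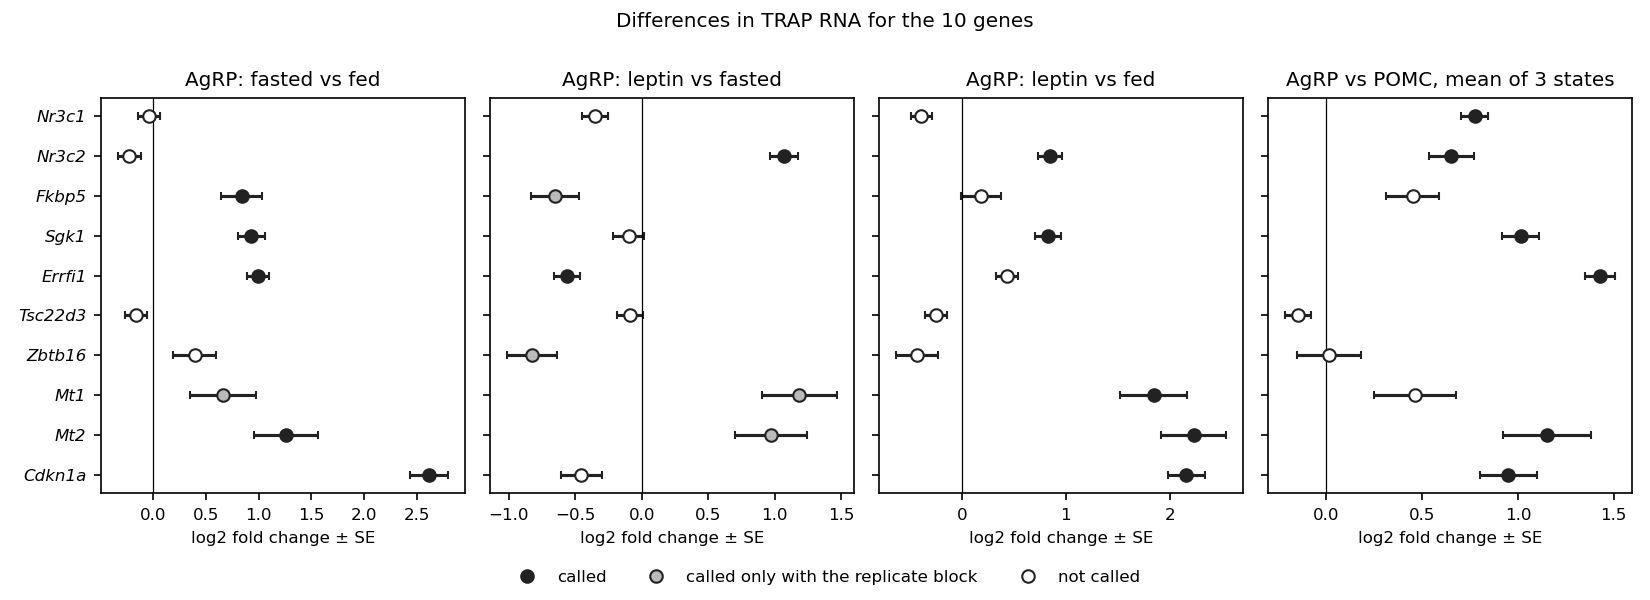
Difference of each gene on the log2 scale, with bars for the SE, for fasted against fed, leptin against fasted and leptin against fed in AgRP libraries and for AgRP against POMC libraries. Black points were called, grey points were called only with the replicate block, and white points were not called. Cdkn1a at 2.61 is farthest right in the fasting panel, and Nr3c2 at 1.07 is the black point on the right under leptin against fasted.

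Set against the whole table, 5 of 10 genes higher with fasting compares with a background of 2.82% of the 13401 genes tested, and 0 lower with 1.07%. With the replicate block 6 of 10 were higher, against 4.4%, and 0 were lower, against 2.54%. For leptin against fasted, 1 was higher and 1 lower, against 1.19% and 0.634%, and with the block 3 and 3, against 1.81% and 1.1%. For leptin against fed, 5 were higher and 0 lower, against 3.73% and 1.75%, and with the block 5 and 0, against 5.34% and 3.23%. The median difference of the 10 genes was 0.75 with fasting, -0.22 for leptin against fasted and 0.63 for leptin against fed, beside 0.017, -0.014 and 0.0094 over all genes tested. These comparisons share libraries, the fasting and the leptin-against-fed ones the fed libraries. The genes are known targets chosen with earlier results of these data in view, so the counts describe them and do not test them as a list.

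In POMC neurons, with 2 libraries per state, the 10 genes gave no call. None passed for fasted against fed, leptin against fasted or leptin against fed, and every FDR was 1, in a table where 0 genes passed (background 0% in each). At an unadjusted p under 0.05 the table held 135 genes higher and 147 lower, 115 higher and 36 lower, and 155 higher and 127 lower in these comparisons, and DESeq2 called 0 and 3, 9 and 1, and 4 and 3. Cdkn1a was at 18.2 and 24.6 CPM in fed, 24.0 and 30.5 CPM in fasted and 23.9 and 44.5 CPM in leptin-treated POMC libraries, and the groups overlapped. Fkbp5 was at 76.3 and 83.6 CPM in fed and 153 and 92.9 CPM in fasted POMC libraries, a difference of 0.62 ± 0.25 with no overlap. Mt2 was at 3.25 and 6.00 CPM in fed and 8.45 and 12.6 CPM after leptin (1.17 ± 0.45), and Mt1 at 11.0 and 20.3 against 25.5 and 30.4 CPM (0.83 ± 0.36). With the replicate block these metallothionein rises were called, at 1.20 (FDR = 0.0217) and 0.87 (FDR = 0.0492), against a background of 0.328%.

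The difference between the neuron types was then tested directly. The fasting effect on Cdkn1a was larger in AgRP than in POMC neurons by 2.26 ± 0.36 on the log2 scale (FDR = 0.0271, background 0.164% in either direction). It was the 1 member called. The call was lost without AgRP fasted library 1, 2 or 3, AgRP fed library 3 or 4, or any of the 4 fed and fasted POMC libraries, with an FDR of up to 0.137. With the block it was 2.22 (FDR = 2.95e-05). For Errfi1 the difference was 0.97 ± 0.19 (FDR = 0.0541), and 1.02 without the AgRP libraries numbered 4 (FDR = 0.0328). The block called Errfi1 (0.97, FDR = 0.0012) and Sgk1 (0.76, FDR = 0.0132, against 0.70 ± 0.23 and FDR = 0.301 without it), over a background of 6.22%. For Fkbp5 it was 0.21 ± 0.34 (FDR = 0.98), so its fasting responses in the 2 neuron types were not distinguishable at this spread. Of the leptin effects, leptin against fasted, none differed by a call between neuron types (background 0.0819%), with 6 genes of the whole table higher and 5 lower. The block called Errfi1 (-0.82, FDR = 0.0154) and Nr3c2 (0.77, FDR = 0.0286), over 0.759%.

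Between neuron types with the states taken into account, 6 members were higher in AgRP neurons and 0 lower, against backgrounds of 6.51% and 6.45%. Errfi1 differed most, by 1.43 ± 0.08 (FDR = 2.66e-08), with 59.2 to 134 CPM in AgRP and 28.7 to 38.9 CPM in POMC libraries. Sgk1 was higher by 1.01 ± 0.10 (FDR = 3.1e-06), Mt2 by 1.15 ± 0.23 (FDR = 0.00179), Cdkn1a by 0.95 ± 0.15 (FDR = 2.98e-04), Nr3c1 by 0.77 ± 0.07 (FDR = 1.88e-06) and Nr3c2 by 0.65 ± 0.12 (FDR = 7.92e-04). Nr3c1 was at 251 to 432 CPM in AgRP and 189 to 215 CPM in POMC libraries, with no overlap. Each of the 6 calls held in 17 of 17 fits without 1 library. In fed libraries alone only Errfi1 and Nr3c1 were called, and Cdkn1a was at -0.29 (FDR = 0.613). Fkbp5 was higher by 0.45 ± 0.14 (FDR = 0.0218), under the fold threshold, and by 0.56 without the AgRP libraries numbered 4 (FDR = 0.0046). Zbtb16 differed by 0.01 ± 0.17 (FDR = 0.952).

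Of 30 further genes listed as glucocorticoid targets, 27 had a row and 24 passed the filter on low counts. With fasting 7 rose and 0 fell in AgRP neurons, beside 2.82% and 1.07% of all genes tested, with a median difference of 0.23 over the list and 0.017 over all genes. The replicate block, and separately the fit without the libraries numbered 4, called 8. The added gene was Crh, corticotropin-releasing hormone (1.04 ± 0.33, FDR = 0.102, against 0.91 and FDR = 0.017 with the block and 1.40 and FDR = 0.0306 without those libraries). Angptl4, an inhibitor of lipoprotein lipase, rose by 1.64 ± 0.21 (FDR = 0.00198) from a mean of 1.95 to 6.03 CPM. Tiparp, an ADP-ribosyltransferase, rose by 1.18 ± 0.19 (FDR = 0.00458) from 37.5 ± 8.63 (SD, n = 3) to 84.4 ± 5.60 CPM (SD, n = 4). Both were called whichever library was left out. Plin4, a lipid droplet protein, rose by 1.40 ± 0.29 (FDR = 0.0167), a call lost without fasted library 3 or fed library 3. Sult1a1, a sulfotransferase, rose by 1.03 ± 0.19 (FDR = 0.0117), lost without fed library 3 or 4. Map3k6 rose by 0.91 (FDR = 0.0211), lost without fasted library 1 or 3 or fed library 1 or 4. The other 2 were Ddit4 (0.88) and Il6ra (0.74).

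Leptin against fasted called 2 genes of that list as higher and 1 as lower, beside 1.19% and 0.634% of all genes tested. The scaffold protein gene Nedd9 rose by 1.36 ± 0.11 (FDR = 1.13e-04), from 21.1 to 27.1 CPM in fasted to 51.0 to 76.7 CPM in leptin-treated mice, with no overlap. Gadd45g, a stress-response gene, rose by 1.06 ± 0.18 (FDR = 0.0114), from 6.69 ± 1.24 to 14 ± 2.46 CPM (SD, n = 4 each). Il6ra, the interleukin-6 receptor, fell by 0.65 ± 0.12 on the log2 scale (FDR = 0.0181), a call lost without fasted library 1 or 3 or leptin library 1, 2 or 3. The list's median was -0.046 here, beside -0.014 over all genes. Angptl4 differed by -0.74 ± 0.18 (FDR = 0.0753), and was called with the block (-0.75, FDR = 0.00397) and without the libraries numbered 4 (-0.84, FDR = 0.0144), which also called Sesn1 (-0.54, FDR = 0.00511, against -0.50 with all libraries). Against fed, leptin-treated mice had 6 genes of the list higher and 0 lower, beside 3.73% and 1.75% of all genes, with a median of 0.19 against 0.0094, led by Plin4 (1.36), Tiparp (1.30) and Sult1a1 (1.29). Both the block and the fit without the libraries numbered 4 called 8, adding Map3k6 (0.67, FDR = 0.0571, and 0.66, FDR = 0.00125 with the block) and Crh (1.06, FDR = 0.0744, and 0.94, FDR = 0.0116 with the block). In POMC neurons 0 of the list were called, with medians of 0.26 for fasted against fed and 0.36 for leptin against fed, which share the fed libraries, and the block called 1 gene higher for leptin against fed. Between neuron types Tiparp (1.45) and Per1 (0.63) were higher in AgRP libraries. Hif3a was at -0.72 ± 0.49 (FDR = 0.265) and was called lower with the block (-0.79, FDR = 5.33e-04) and without the libraries numbered 4, which also called Dusp1 higher (0.54). The fasting effect on Tiparp differed between neuron types by 1.01 ± 0.28 (FDR = 0.189), and was called with the block (1.05, FDR = 0.0296) and without the libraries numbered 4 (1.20, FDR = 0.045).

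A list of 24 receptor cofactors and enzymes of steroid metabolism, 23 of them tested, held 1 gene called between states of AgRP neurons. Over all genes tested, 2.82% were called higher with fasting and 3.73% with leptin against fed, so this count was near the background. Ncoa2, a coactivator of nuclear receptors, was at 339.9 ± 28.2 CPM in fed, 545.8 ± 49.9 CPM in fasted and 526.8 ± 53.7 CPM in leptin-treated AgRP libraries (SD, n = 3, 4 and 4). It rose by 0.69 ± 0.11 with fasting (FDR = 0.0049) and by 0.64 with leptin against fed (FDR = 0.00612). Hsd11b2 encodes the enzyme that inactivates corticosterone and so keeps it from the mineralocorticoid receptor in kidney. It was at 59.5 to 83.8 CPM in every AgRP library and at 0.0578 to 0.435 CPM in POMC libraries, a difference of 8.28 ± 0.21 (FDR = 8.71e-12). No state moved it by a call. Nedd4l, a ubiquitin ligase gene, was called lower in AgRP than in POMC libraries with the block (-0.56) and without the libraries numbered 4 (-0.96), and Srd5a1, a steroid reductase gene, without those libraries (-0.56), but neither otherwise. The block also called the fasting effect between neuron types of Ncoa2 (0.53, FDR = 0.00322) and Hspa8 (0.57, FDR = 0.00886).

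Among the 150 peaks near members with enough counts to test, 29 opened and 8 closed in fasted AgRP neurons, which is 19.3% and 5.33% beside backgrounds of 18.1% and 8.88% of the 102237 peaks tested. The fasted-opened share near these genes was thus close to that of all peaks. Leptin against fasted opened 4 (2.67%) and closed 0, beside 2.41% and 0.669%. Leptin against fed opened 44 (29.3%) and closed 20 (13.3%), beside 23.3% and 13.5%. With 2 libraries per state, leaving out 1 leaves a lone library that is assumed to vary like the others. The fasted-opened share was then 13.2% to 17.4%, the lowest of them, 20 peaks, without fed library 1, where it was 11.7% over all peaks. The fasted-closed share was 2.04% to 3.33%, the lowest, 3 peaks, without fasted library 1, where it was 5.83% over all peaks. By member, with fasting 2 of 6 tested peaks opened around Nr3c2, 6 of 21 around Mt1 and 6 of 22 around Mt2, whose windows share peaks, 5 of 18 around Errfi1, 5 of 24 around Fkbp5, 4 of 20 around Sgk1, 3 of 16 around Cdkn1a, 2 of 18 around Nr3c1, and 1 of 13 around Tsc22d3 and around Zbtb16. These shares ran from 7.69% to 33.3%, and their differences were not tested.

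**Figure D3:**
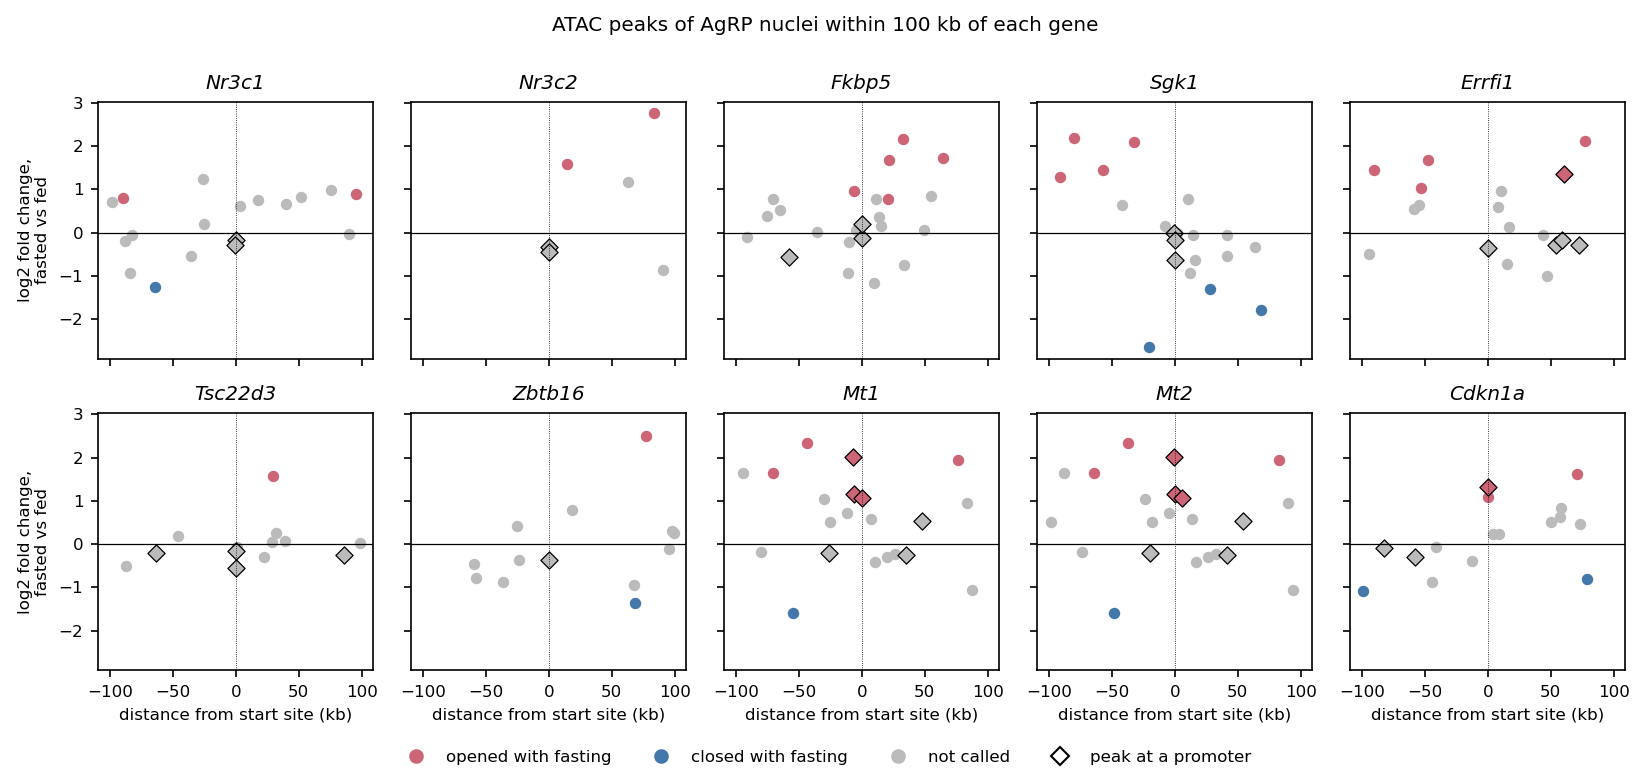
Peaks within 100 kb of each member, 1 panel per gene, with the distance from the nearest start site in kb on the horizontal axis and the log2 difference in accessibility of fasted against fed AgRP nuclei on the vertical axis. Red points opened, blue points closed, grey points were not called, and diamonds are promoter peaks. The diamonds at the start sites of Mt1, Mt2 and Cdkn1a are red, at 1.07, 1.15 and 1.33.

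The peak nearest the start site opened with fasting in 3 of the 10 genes, beside 18.1% of all peaks tested. That share covers peaks of every kind and not start-site peaks alone, and Mt1 and Mt2 are neighbours. With 1 peak per gene, this count was not tested against that share. The Cdkn1a start-site peak (chr17:29093513-29093869) was at 7.20 and 6.56 CPM in fed, 18.9 and 15.4 CPM in fasted and 16.2 and 14.1 CPM in leptin-treated libraries. It opened by 1.33 ± 0.28 with fasting (FDR = 0.00176), called in all 6 fits without 1 library, and was still open after leptin, at 1.15 ± 0.29 over fed (FDR = 0.00371). Next to it, the intronic peak with the strict GRE match (chr17:29094114-29095893) opened by 1.09 ± 0.22 (FDR = 0.00119), from 18.7 and 37.6 to 64.2 and 60.4 CPM, also called in 6 of 6 fits.

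Both metallothionein start sites were more open after fasting, and their leptin libraries read highest. The Mt1 start-site peak (chr8:94178700-94179409), which holds the promoter printed above, was at 9.56 and 9.80 CPM in fed, 25.6 and 15.2 CPM in fasted and 36.6 and 26.6 CPM in leptin-treated libraries. It opened by 1.07 ± 0.29 with fasting (FDR = 0.00947), lost without fasted library 1 (0.66, FDR = 0.153), and by 1.69 ± 0.28 with leptin against fed (FDR = 1.33e-04), while leptin against fasted was 0.62 (FDR = 0.198) and not called. The Mt2 start-site peak (chr8:94172167-94173022) was at 4.96 and 3.96, then 9.05 and 10.3, then 17.4 and 18.5 CPM. It opened by 1.15 ± 0.33 with fasting (FDR = 0.0127), lost without fasted library 2 or fed library 2, and again by 0.89 ± 0.24 with leptin against fasted (FDR = 0.0468), lost without either fasted or either leptin library. Leptin against fed was 2.04 ± 0.30 (FDR = 5.19e-05), called in 6 of 6 fits.

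The peak at -826 bases from the Mt2 start site (chr8:94171324-94171838), with the first GRE match printed above, was at 2.85 and 7.35 CPM in fed, 26.8 and 18.3 CPM in fasted and 31.2 and 29.9 CPM in leptin-treated libraries. It opened by 2.01 ± 0.32 with fasting (FDR = 1.85e-04), called in 6 of 6 fits, and differed by 0.44 between leptin and fasted (FDR = 0.448). Farther out, an intergenic peak at -37530 bases from the Mt2 start site (chr8:94134620-94135134) went from 1.24 and 1.37 to 6.95 and 6.54 CPM with fasting, by 2.34 ± 0.43 (FDR = 5.58e-04).

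The peaks nearest the start sites of the other 7 genes had no call with fasting. That of Fkbp5 (chr17:28485364-28486529) read 36.6 and 54.1 CPM in fed and 41.6 and 42.9 CPM in fasted libraries (-0.13, FDR = 0.63). Those of Sgk1 (-0.63, FDR = 0.0622), Tsc22d3 (-0.54, FDR = 0.0628), Zbtb16 (-0.36, FDR = 0.139), Errfi1 (-0.36, FDR = 0.189), Nr3c2 (-0.32, FDR = 0.111) and Nr3c1 (-0.18, FDR = 0.396) likewise had negative differences. Leptin against fed called the start sites of Tsc22d3 (-0.64, FDR = 0.0234), Zbtb16 (-0.60, FDR = 0.0138) and Errfi1 (-0.56, FDR = 0.0373) as less open. The Tsc22d3 call was lost without fed library 2 or either leptin library, the Zbtb16 call without leptin library 2, and the Errfi1 call was kept in 1 of 6 fits. The Errfi1 transcript had risen with fasting, and those of Zbtb16 and Tsc22d3 had no call against fed.

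Peaks farther from the start sites of those genes opened with fasting. Around Fkbp5, the intronic peak at 33023 bases from a start site (chr17:28408338-28408691) went from 1.24 and 1.15 to 5.10 and 5.66 CPM with fasting, by 2.17 ± 0.47 (FDR = 0.00221, 6 of 6 fits). The Fkbp5 intronic peak with a GRE match (chr17:28419721-28420738) went from 19.9 and 16.0 to 33.1 and 27.8 CPM, by 0.79 ± 0.22 (FDR = 0.0107), lost without fasted library 1 or fed library 2. Upstream of Sgk1, a peak at -32500 bases (chr10:21849273-21849684) went from 0.621 and 1.59 to 5.86 and 4.67 CPM, by 2.10 ± 0.45 (FDR = 0.00204, 6 of 6 fits). In the opposite direction, a Sgk1 intronic peak at -20440 bases from another start site went from 1.74 and 2.81 to 0.382 and 0.373 CPM, by -2.64 ± 0.59 (FDR = 0.00278).

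Errfi1 and Tsc22d3 each had an opened intergenic peak with a strict GRE match. That at -53574 bases from Errfi1 (chr4:150799389-150800345) went from 5.83 and 8.29 to 14.5 and 15.2 CPM, by 1.03 ± 0.29 (FDR = 0.0119), lost without fed library 1. That at 29466 bases from Tsc22d3 (chrX:140513280-140513721) went from 1.74 and 1.30 to 4.52 and 4.17 CPM, by 1.57 ± 0.42 (FDR = 0.00951), lost without fed library 2. The Tsc22d3 transcript had no call in this comparison.

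The openings of Nr3c2 lay in introns. The peak at 83260 bases from a start site (chr8:76991532-76992139) went from 1.74 and 2.52 CPM in fed to 16.1 and 14.1 CPM in fasted and 21.3 and 22 CPM in leptin-treated libraries. It opened by 2.76 ± 0.35 with fasting (FDR = 3.81e-05, 6 of 6 fits) and by 3.28 ± 0.34 with leptin against fed (FDR = 3.53e-06), although the transcript did not rise with fasting. A second Nr3c2 peak at 90857 bases (chr8:76999129-76999625) was at 1.49 and 2.31 CPM in fed, 1.27 and 0.934 CPM in fasted and 5.83 and 5.36 CPM in leptin-treated libraries. It opened with leptin against fasted by 2.33 ± 0.38 (FDR = 0.0015, 6 of 6 fits), in the state where the transcript was highest. Near Nr3c1 the largest opening with fasting was intergenic, at 95838 bases from a start site (chr18:39390885-39391394), from 3.72 and 9.30 to 14.4 and 11.8 CPM (0.89 ± 0.32, FDR = 0.0454), and was kept only without fed library 2. A peak at -64416 bases (chr18:39555090-39555866) closed from 7.32 and 6.06 to 2.49 and 2.99 CPM (-1.26 ± 0.34, FDR = 0.00911), lost without fasted library 1, and stayed lower after leptin.

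The remaining peaks with the largest called changes lay far from the start sites, several in introns of other genes. With fasting, a Zbtb16 intronic peak at 77139 bases (chr9:48758526-48758806) opened from 0.621 and 0.216 to 2.49 and 1.74 CPM (2.50 ± 0.66, FDR = 0.00785), lost without fed library 2. One in an intron of Tnfrsf9, at 77351 bases from Errfi1 (chr4:150932424-150932767), opened by 2.13 ± 0.58 (FDR = 0.0102), lost without either fed library. One in Cpne5, at 71063 bases from Cdkn1a (chr17:29168963-29169319), opened by 1.63 ± 0.42 (FDR = 0.00758), lost without fasted library 2. These 3 peaks had low counts, at most 7.57 CPM in any library. At -80480 bases from Sgk1 a peak opened by 2.18 ± 0.71 (FDR = 0.0267), lost without either fed library. Closings were at -48427 bases from Mt2 (-1.60 ± 0.47, FDR = 0.0149), lost without fasted library 1 or either fed library, at 68479 bases from Zbtb16 (-1.36 ± 0.50, FDR = 0.0486), kept in 0 of 6 fits, and at -99924 bases from Cdkn1a, in Stk38 (-1.08 ± 0.38, FDR = 0.0382), kept only without fasted library 2.

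Leptin against fed gave further calls of this kind. A peak in Nup93, at 76403 bases from Mt1 (chr8:94255644-94256121), went from 1.49 and 1.23 to 13.0 and 5.69 CPM (2.78 ± 0.50, FDR = 2.68e-04, 6 of 6 fits). One at -47860 bases from Errfi1 opened by 2.50 (FDR = 0.00139, 6 of 6 fits). In the other direction, a peak at 68617 bases from Sgk1 (chr10:22063283-22063546) went from 9.06 and 2.81 to 0.625 and 0.279 CPM (-3.58 ± 0.66, FDR = 3.66e-04, 6 of 6 fits), and one at 78532 bases from Cdkn1a, in Cpne5, closed by -1.45 (FDR = 9.9e-04, 6 of 6 fits). The Fkbp5 peak at -1090 bases went from 56.6 and 21.9 to 17.8 and 8.31 CPM (-1.55 ± 0.43, FDR = 0.0078), lost without fed library 1 or leptin library 2. Those at 67958 bases from Zbtb16 (-2.28, FDR = 0.00692), lost without leptin library 2, and at -87178 bases from Tsc22d3, in Mid2 (-0.76, FDR = 0.0421), kept in 2 of 6 fits, were also less open.

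Leptin-opened peaks of the same shape lay in Nr3c1 and Sgk1. The Nr3c1 intronic peak at -25319 bases (chr18:39515993-39516672) was at 0.869 and 1.37 CPM in fed, 0.829 and 1.87 CPM in fasted and 7.57 and 6.14 CPM in leptin-treated libraries, a rise of 2.32 ± 0.38 against fasted (FDR = 0.00136), lost without fasted library 1. The Sgk1 intronic peak at 11974 bases (chr10:21894158-21894768) was at 1.86 and 4.40, then 2.17 and 1.43, then 14.9 and 8.76 CPM, a rise of 2.69 ± 0.39 against fasted (FDR = 6.23e-04, 6 of 6 fits). Neither transcript was called as higher with leptin than with fasting. The intronic peaks of Nr3c2, Nr3c1 and Sgk1 and the Mt2 start site are the 4 that leptin opened against fasted.

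**Figure D4:**
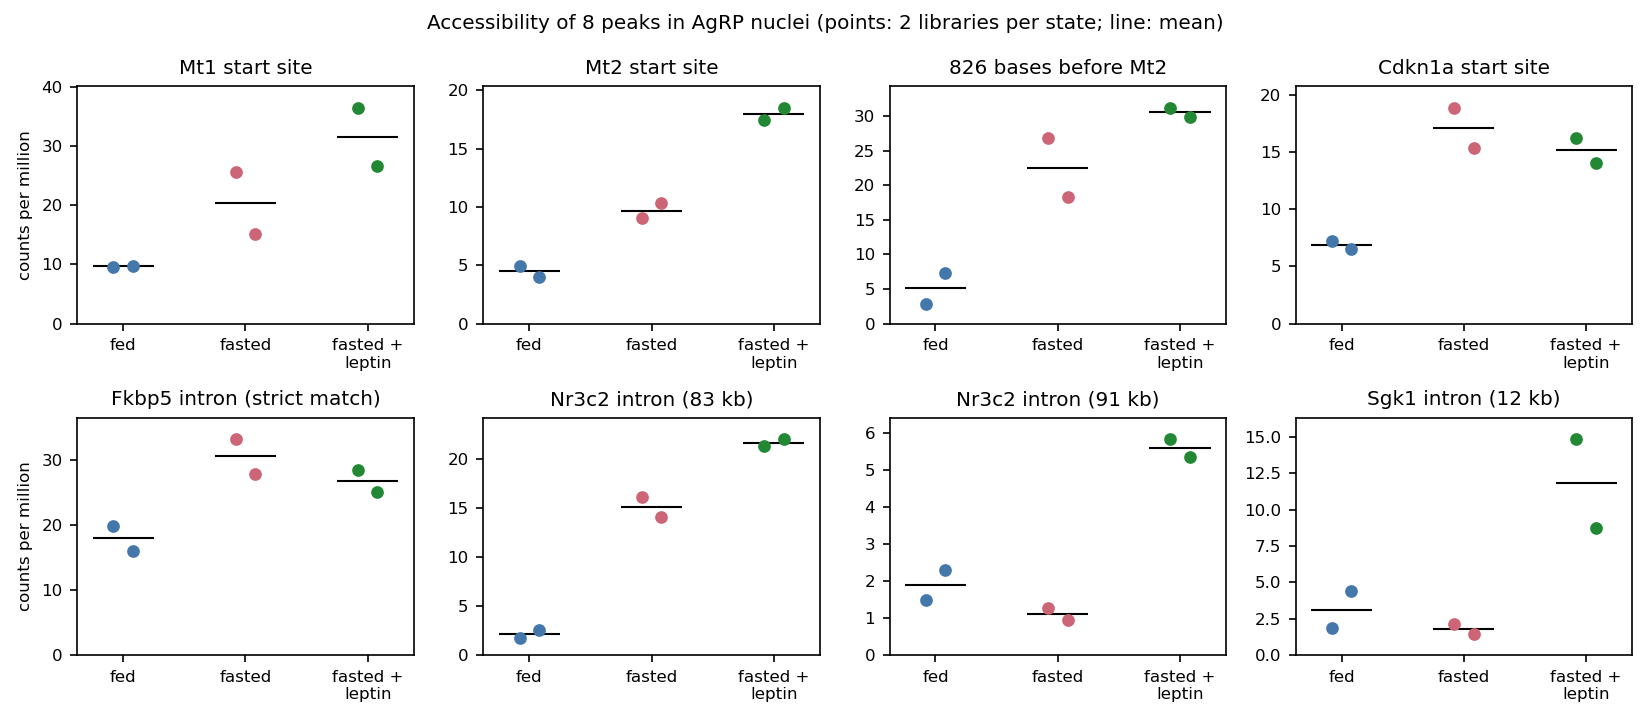
Accessibility in CPM on the vertical axis of 8 peaks near Mt1, Mt2, Cdkn1a, Fkbp5, Nr3c2 and Sgk1 in fed, fasted and leptin-treated AgRP nuclei, with 1 point per library (2 per state) and a line at the mean. The Mt2 peak at -826 bases and the first Nr3c2 peak are high after fasting with and without leptin, and the second Nr3c2 peak and the Sgk1 peak are high only after leptin, at 5.83 and 5.36 CPM and at 14.9 and 8.76 CPM.

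In the sorted nuclei, 95 of the 97 peaks near members could be tested. Of these, 18 were more and 18 less accessible in AgRP-positive than in AgRP-negative nuclei, 18.9% each beside backgrounds of 23.9% and 15.6%. Fitted with the replicate block, 20 were less accessible, and the share over all peaks in that fit is not given here. The start sites of Mt1 (-0.79 ± 0.19, FDR = 2.62e-04), Nr3c1 (-0.62 ± 0.11, FDR = 4.73e-07) and Tsc22d3 (-0.74, FDR = 5.63e-05) were less open in AgRP-positive nuclei. Mt1 read 20.9 and 24.5 CPM in AgRP-negative and 13.6 and 12.7 CPM in AgRP-positive libraries, and Nr3c1 read 127 and 116 against 81.0 and 76.5 CPM. Mt2 was lower by -1.09 ± 0.31 (FDR = 0.00213), lost without AgRP-negative library 2. The Sgk1 intronic peak that leptin opened overlapped 1 that was more open in AgRP-positive nuclei, at 8.35 and 5.91 against 1.11 and 1.30 CPM (2.54 ± 0.45, FDR = 2.84e-07). Another Sgk1 intronic peak (chr10:21949089-21949545) was less open (-1.55 ± 0.44, FDR = 0.00207), lost without AgRP-negative library 2 or AgRP-positive library 1. Sgk1 has 5 start sites, and the peak at the first (chr10:21881856-21883006) had no call (-0.15, FDR = 0.529). A peak at a later Sgk1 start site (chr10:21994032-21994894) was called less open, lost without AgRP-negative library 1 (-0.40). An Fkbp5 intronic peak at -1120 bases was at 10.7 and 22.4 against 2.58 and 5.92 CPM (1.96 ± 0.27, FDR = 1.43e-11). The start sites of Cdkn1a (0.17, FDR = 0.747) and Nr3c2 (0.01) had no call.

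Other peaks more open in AgRP-positive nuclei lay at -89618 bases from Nr3c1, intergenic, at 5.15 and 5.50 against 0.246 and 0.592 CPM (3.62 ± 0.63, FDR = 1.61e-07), and in Nup93, at 48589 bases from Mt1, at 21.8 and 18.7 against 2.09 and 3.43 CPM (2.86 ± 0.29, FDR = 1.9e-21). A Zbtb16 intronic peak at 18294 bases was more open by 2.99 ± 0.54 (FDR = 4.78e-07). These 3 calls held in each of the 4 fits without 1 library. An intergenic peak at 98561 bases from Tsc22d3 (2.35, FDR = 4.29e-04) lost its call without AgRP-negative library 1, and a Nr3c2 intronic peak at 90950 bases (2.13, FDR = 0.0238) kept its call only without AgRP-positive library 2. Less open were peaks at -59764 bases from Mt1 (-2.38 ± 0.39, FDR = 1.14e-08, 4 of 4 fits) and 37018 bases from Tsc22d3 (-3.44 ± 0.76, FDR = 4.25e-05). Those at 90563 bases from Fkbp5 (-1.56, FDR = 0.0184) and -24212 bases from Zbtb16 (-1.06, FDR = 0.0396) were called in 0 of 4 fits.

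GRE letters were found in the central 300 bases of 28 of the 150 peaks near members (18.7%) and strict matches in 11 (7.33%), beside 13.2% and 2.33% of 102204 tested peaks. Among the 29 that opened with fasting, 8 held a core (27.6%) and 4 a strict match (13.8%), beside 19.7% and 4.12% of 18517 fasted-opened peaks. Of the 8 that closed, 0 held a core, beside 12.8% of 9068 fasted-closed peaks. Over whole peaks, 15 of the 150 held a strict match (10.0%), beside 3.17% of all tested peaks. These were 6 of the 29 opened ones (20.7%, beside 5.25% of all fasted-opened peaks) and 0 of the 8 closed ones (beside 2.05%). The other 9 were among the 113 with no call (7.96%, beside 2.80%). The 6 are those printed above. The 2 printed from peaks with no call lay at -226 bases from an Fkbp5 start site (0.20 ± 0.20, FDR = 0.476) and at 98150 bases from a Zbtb16 start site (0.30 ± 0.30, FDR = 0.473). Near Fkbp5 a strict match thus lay in the intronic peak that opened and in the peak at -226 bases with no call. Tested Fkbp5 peaks with a strict match at -4924 bases (0.06, FDR = 0.803) and -65359 bases (0.52, FDR = 0.269) had no call either.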

How the data were processed

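TRAP RNA-seq and ATAC-seq libraries were grouped by their labels. For RNA, the deposited values are raw counts (17 libraries used) that the authors obtained from HISAT2 alignments (mm10), as primary alignments to exons summed per gene by featureCounts, on an annotation they had altered so that fewer transcripts overlap. Handling of strand is not given in the sources used here. ATAC-seq reads were aligned by the authors with Bowtie2, and the deposited counts are reads per peak (6 and 4 libraries). Of the deposited CUT&RUN lists, positions of CTCF peaks of AgRP nuclei (1 sample, with the fold enrichment that MACS2 gave the authors) were used. A deposited list of signal per region in the format of SEACR names no antibody, and no value from it is given. Libraries of whole tissue, log2 tables and cerebellum lists were not used here.

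Counts were scaled by TMM and tested with edgeR 4.0.16 by the quasi-likelihood test (R 4.3.3), keeping features with a mean over 1 CPM, after tests on simulated data. A feature was called at FDR under 0.05, adjusted over all features, and an absolute log2 fold change over 0.5. Each RNA fit held the libraries of its neuron type in all states, the comparison of neuron types held all 17 libraries with state as a term, and ATAC fits held all libraries of their table. Alternatives were DESeq2 1.42.0, library size scaling, no minimum CPM, the earlier robust quasi-likelihood fit, the library number as a block, leaving out each library, fed libraries only, 50 and 200 kb windows and whole-peak motif search. Leaving out the AgRP libraries numbered 4 was chosen after seeing the data. Same-numbered AgRP RNA libraries deviated together in all 10 pairs of states (r = 0.536 to 0.814, against -0.642 to 0.642 for other pairs), and same-numbered POMC libraries with r = 0.733 to 0.770, so the numbers were taken to pair the RNA samples. Sorted AgRP-positive and AgRP-negative nuclei came from the same pools per the study's methods (r = 0.0988), so those too were taken as pairs.

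Peaks were assigned by distance to start sites of protein-coding GENCODE vM21 transcripts and by gene parts (promoter, exon, intron, intergenic). The members and the further lists were chosen with earlier results of these data known. All members were described in every contrast, with at most 5 called genes per further list and contrast, and for each member the peak nearest its start site and the called peaks with the largest change. Where peaks tied in distance to a start site of a gene, the one with the lowest coordinate was taken. The intronic Cdkn1a and Fkbp5 peaks and the Errfi1 peak with strict GRE matches, and the peak at -826 bases from Mt2, were added after their values were seen. No depth limit beyond the filter was applied, and totals of 8263234 to 54511107 counts set the precision.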

Additional observations from a re-analysis of the deposited data

Results flagged for a closer look

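Of 20 groups of 4 AgRP libraries examined for a library far from the rest of its group, 2 had one, and chance gives about 1 in 20. Fkbp5 in fasted mice was highest in library 3, at 233 CPM against 179 to 185 CPM in the other 3. Nr3c2 in leptin-treated mice was highest in library 1, at 63.9 CPM against 48.8 to 49.8 CPM in the other 3. Leaving out fasted library 3 ended the Fkbp5 fasting call, and leaving out leptin library 1 did not end the Nr3c2 call. The fasting effect on Cdkn1a differed between AgRP and POMC neurons by 2.26 on the log2 scale, by the test of the difference itself (edgeR, FDR = 0.0271), and that call was lost in 9 of 17 fits that left out 1 library.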

How the results depend on the processing

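The number of members called depended on the fit where single genes lay near the threshold. For fasted against fed in AgRP neurons, 5 members were called higher, 3 with library size scaling and 3 to 5 without 1 library. For leptin against fasted, 1 was higher and 1 lower. DESeq2 gave 3 and 3, the replicate block 3 and 3, the block without the libraries numbered 4 gave 3 and 2, library size scaling 0 lower, no minimum CPM 2 lower, and fits without 1 library 1 to 3 higher and 1 to 2 lower. For leptin against fed, leaving out the libraries numbered 4 made 1 member lower, with and without the block. For POMC leptin against fed the block called 2 higher. For AgRP against POMC, fed libraries only called 2 higher. For the fasting effect between neuron types, DESeq2 and the fit without the libraries numbered 4 called 2 members, the block 3 with or without those libraries, and fits without 1 library 0 to 2. For the leptin effect the block called 1 higher and 1 lower, with or without the libraries numbered 4.

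Directions reversed in genes with small differences. Nr3c1 with fasting ran from -0.13 to 0.071 without 1 library, positive without fasted library 2 (0.0024) or fed library 3. Fkbp5 for leptin against fed ran from -0.0079, without fed library 4, to 0.34. Zbtb16 between neuron types ran from -0.14 to 0.24 and was negative in 7 of 17 such fits, Cdkn1a between neuron types was -0.29 in fed libraries only, and the fasting effect of Fkbp5 between neuron types ran from -0.12, without POMC fasted library 2, to 0.61. The cause was not tested.

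Of peaks near members, DESeq2 called 2.00% fasted-closed and 7.33% closed by leptin against fed, and the block called 2.67% closed by leptin against fasted. Without 1 library the fasted-opened share was 13.2% to 17.4% (over all peaks 11.5% to 16.8%), fasted-closed 2.04% to 3.33% (over all peaks 4.74% to 8.2%), leptin-opened against fed 15.4% to 29.3% (15.4%, 23 peaks, without leptin library 1, beside 16.4% over all peaks) and closed 3.45% to 12.9% (3.45%, 5 peaks, without leptin library 2, beside 6.97%). Whole peaks near members held a GRE core in 26.7%, beside 19.5% of all tested peaks. Same-numbered ATAC libraries of the 3 states had r = -0.00228 to 0.165, so they share only a number. With the number as a block 38 peaks near members opened and 12 closed with fasting. Apart from the counts for leptin against fasted below, calls over all peaks in the DESeq2 and block fits are not given here. The figures from those fits are thus not read as particular to the members.

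Over all genes, fasted against fed called 378 higher and 143 lower, the block 590 and 340, library size scaling 148 and 90 and the fit without the libraries numbered 4 404 and 305. Leptin against fasted called 160 and 85, the block 242 and 148, and library size scaling 107 and 39. Leptin against fed called 500 and 235, the block 715 and 433, and library size scaling 194 and 135. AgRP against POMC called 875 and 866, library size scaling 1231 and 655, and fed libraries only 143 and 149. The fasting effect between neuron types called 19 and 3, DESeq2 124 and 41, and the block 582 and 254. The leptin effect called 6 and 5, DESeq2 26 and 13, and the block 45 and 57. Leptin against fasted called 2460 and 684 peaks, DESeq2 1434 and 345, and the block 3942 and 1933.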

Other observations

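Over the 11 AgRP libraries, the genes whose log2 CPM ran most like a member's were named as a description, since the libraries share 3 states, paired numbers and astrocyte RNA. Mt1 and Mt2 ran most like each other (Pearson r = 0.967). For Cdkn1a the closest were Syndig1l (0.987), 9630014M24Rik (0.987) and Notch4 (0.985), and for Nr3c2 they were Etv6 (0.979), Arid5a (0.974) and Elovl1 (0.971). For Fkbp5 they were Kcnk1 (0.970), Tpst2 (0.960) and Mfsd1 (0.956), for Sgk1 Lat2 (0.968), Pvr (0.966) and E2f3 (0.965), and for Errfi1 Nfkbiz (0.966), Tex30 (0.965) and Hhip (0.964). Mt1 was next closest to Reep2 (0.965) and Mark4 (0.962), and Mt2 to Odc1 (0.961) and Hoga1 (0.952).

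A list of 49095 CTCF CUT&RUN peaks from 1 sample of AgRP nuclei held peaks within 100 kb of each of the 10 genes, from 2 near Nr3c2 to 13 near Fkbp5. With 1 sample there was no test.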
